A study of Mus musculus with 24 samples.

Results

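The extracellular matrix genes of the liver and the markers of the cells that make it, 47 genes in all, were followed through livers that received a transposase plasmid alone or with 2 oncogenes, with or without the hepatotoxin thioacetamide (TAA). The genes were taken by symbol from a count table of 53467 genes, with no threshold on a measured value, as a list drawn up with earlier results of these data known. They comprise 16 collagen chains, 8 markers of stellate cells and myofibroblasts, 7 genes of crosslinking and elastic fibers, 8 glycoproteins and proteoglycans, 2 growth factors and 6 proteases and inhibitors. All 47 passed the filter on low values (at least 0.5 CPM, the counts scaled to the library total, in at least 2 livers), as did 19381 genes in all.

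The 24 male C57BL/6JAusb mice, 14 to 15 weeks old, were given plasmids by hydrodynamic tail vein injection (HTVI), a rapid high-volume injection that delivers DNA mainly to hepatocytes. Every mouse, controls included, received 0.8 µg of the Sleeping Beauty (SB) transposase plasmid, driven by the CMV promoter. The SB group received that plasmid only, SB/AKT/c-Met mice received in addition 10 µg of myristoylated AKT and 10 µg of human c-Met (EF1a promoter), and SB/AKT/NRas mice received 10 µg of myristoylated AKT and 10 µg of human NRasV12 (CAGGS promoter). From day 8 to 10 after HTVI, 10 to 11 intraperitoneal injections were given over 5 to 6 weeks, either of saline or of TAA, the first dose of 100 mg/kg being followed by doses of 200 mg/kg. Saline controls numbered 4 mice for SB + saline, 3 mice for SB/AKT/c-Met + saline and 4 mice for SB/AKT/NRas + saline. Treated mice numbered 4 for SB + TAA, 4 for SB/AKT/c-Met + TAA and 5 for SB/AKT/NRas + TAA, each mouse giving 1 library with no pooling. RNA came from bulk frozen liver, so that tumor and surrounding tissue contributed to the same library.

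Hepatic stellate cells store vitamin A in the space between hepatocytes and sinusoids. On injury they are known to lose these stores, take on contractile proteins and secrete fibrillar collagens, which lysyl oxidases crosslink, small proteoglycans and glycoproteins organize, and metalloproteinases and their inhibitors turn over. In bile duct tumors a similar matrix is laid down by fibroblasts of the stroma. The comparisons asked how these genes stood after injury alone, after each pair of oncogenes alone, and after both together.

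The libraries held 2152510 to 3399247 assigned counts (median 2832909), so that 3 counts corresponded to 0.751 to 1.70 CPM and the lowest genes rested on few reads. The 47 genes took 0.0919 to 0.331% of the counts. Assignment to genes was lower in SB + saline (15.6 to 16.7% of reads) than in SB + TAA (20.7 to 23.1%), and scaling factors were 0.772 to 0.817 and 0.943 to 1.15; whether this played a part in the differences was not tested. Hepatocyte markers (8 genes) summed to 48495 CPM or more in every liver, as the tissue label requires, while of the stellate markers Lrat, Reln, Pdgfrb and Hgf were detected in all 24 livers and Des and Acta2 were near the floor in some. Human NRAS counts were at most 2 in livers without the NRas plasmid, and human MET counts were 2 to 31 in the c-Met livers and 0 elsewhere. A pair of livers stood apart. SB + TAA replicate 4 held 9742 CPM of 15 skeletal muscle markers against 40.7 CPM or less elsewhere, and SB/AKT/NRas + saline replicate 1 held the lowest NRAS transgene level of its group, 12.3 CPM against 55.3, 218 and 66.1 CPM. Calls that were lost without these livers are given with and without them. In SB/AKT/NRas + TAA the NRAS transgene was at 34.0, 47.7, 18.5, 17.9 and 75.7 CPM. Replicates 3 and 4 of that group also held its lowest sums of the 47 genes, 1269 and 1239 CPM. They were left out only 1 at a time. Whether the transgene level played a part in the differences was not tested.

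The promoters of 3 genes are shown, 1 each for the collagens, the myofibroblast markers and the protease inhibitors: Col3a1, a fibrillar collagen higher in both TAA-treated and NRas livers, Acta2, the smooth muscle actin that defines the myofibroblast, and Timp1, the inhibitor of metalloproteinases with the largest fitted change among the 47. Each line is the 250 bases before the start in RefSeq (GRCm38.p6), 5′ to 3′ on the gene's strand, at chr1:45311288-45311537, plus strand, chr19:34255374-34255623, minus strand and chrX:20869916-20870165, plus strand. Capitals mark TATAAA in Col3a1, 117 to 112 bases before the start, and CCAAT read on the other strand in Timp1, 190 to 186 bases before the start.
Col3a1: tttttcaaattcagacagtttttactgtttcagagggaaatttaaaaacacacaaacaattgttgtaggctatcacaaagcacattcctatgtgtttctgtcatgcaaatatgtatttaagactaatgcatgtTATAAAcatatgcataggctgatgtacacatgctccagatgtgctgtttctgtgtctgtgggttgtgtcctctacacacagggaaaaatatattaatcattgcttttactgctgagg
Acta2: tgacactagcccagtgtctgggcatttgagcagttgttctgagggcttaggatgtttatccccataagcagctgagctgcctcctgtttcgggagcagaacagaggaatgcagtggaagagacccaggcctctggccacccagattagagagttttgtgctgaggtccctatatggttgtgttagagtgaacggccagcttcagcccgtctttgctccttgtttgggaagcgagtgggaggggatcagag
Timp1: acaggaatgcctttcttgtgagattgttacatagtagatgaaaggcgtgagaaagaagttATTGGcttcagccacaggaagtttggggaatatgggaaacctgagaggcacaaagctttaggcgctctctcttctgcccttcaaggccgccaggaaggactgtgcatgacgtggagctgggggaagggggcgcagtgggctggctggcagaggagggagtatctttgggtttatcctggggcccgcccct
The motifs searched on both strands were the CCAAT box (CCAAT), the TATA box (TATAAA) and the AP-1 site (TGANTCA), of which Acta2 held none in this window. The Acta2 window stops at base 34255374, before the RefSeq start. In the annotation used for counting, the gene begins at base 34255336, and the bases between were not searched. RefSeq promoters were matched for 32 of the 47 genes. Of these, 12 (37.5%) held a CCAAT box, 4 (12.5%; Col3a1, Mmp13, Thbs2 and Vim) a TATA box and 2 (6.25%; Col6a1 and Mmp13) an AP-1 site, against 33.8, 12.4 and 6.75% of 32851 mouse promoters of the same length. The shares of these motifs in the 47 genes lay near those of all promoters. These were matches of letters at any position in the 250 bases, and whether any of them acts as a promoter element was not tested. Some of the genes are neighbors in the genome (GRCm38): Col3a1 and Col5a2 on chromosome 1 are 24615 bases apart, Dcn and Lum on chromosome 10 are 46985 bases apart, and Col4a1 and Col4a2 on chromosome 8 start head to head, their annotated ends overlapping.

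Most of the 47 genes were fitted higher than in SB + saline livers in every other group (76.6 to 93.6%, against 51.8 to 55.6% of all genes). The number past the test ran from 0 to 21. With TAA alone, 8 of the 47 rose and 1 fell (edgeR's quasi-likelihood test, Benjamini-Hochberg adjusted p under 0.05), where 5.99% of all genes tested were called (3.48% higher and 2.51% lower). With AKT and NRas alone, 20 rose and 1 fell, against 8.41% of all genes (5.56% higher and 2.84% lower). With AKT, NRas and TAA together 11 rose and 1 fell, against 9.25% (5.7% higher and 3.55% lower), and with AKT, c-Met and TAA together 2 rose, against 3.76% (2.68% higher). In bulk tissue, more cells of a type and more RNA per cell cannot be told apart.

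**Figure D1:**
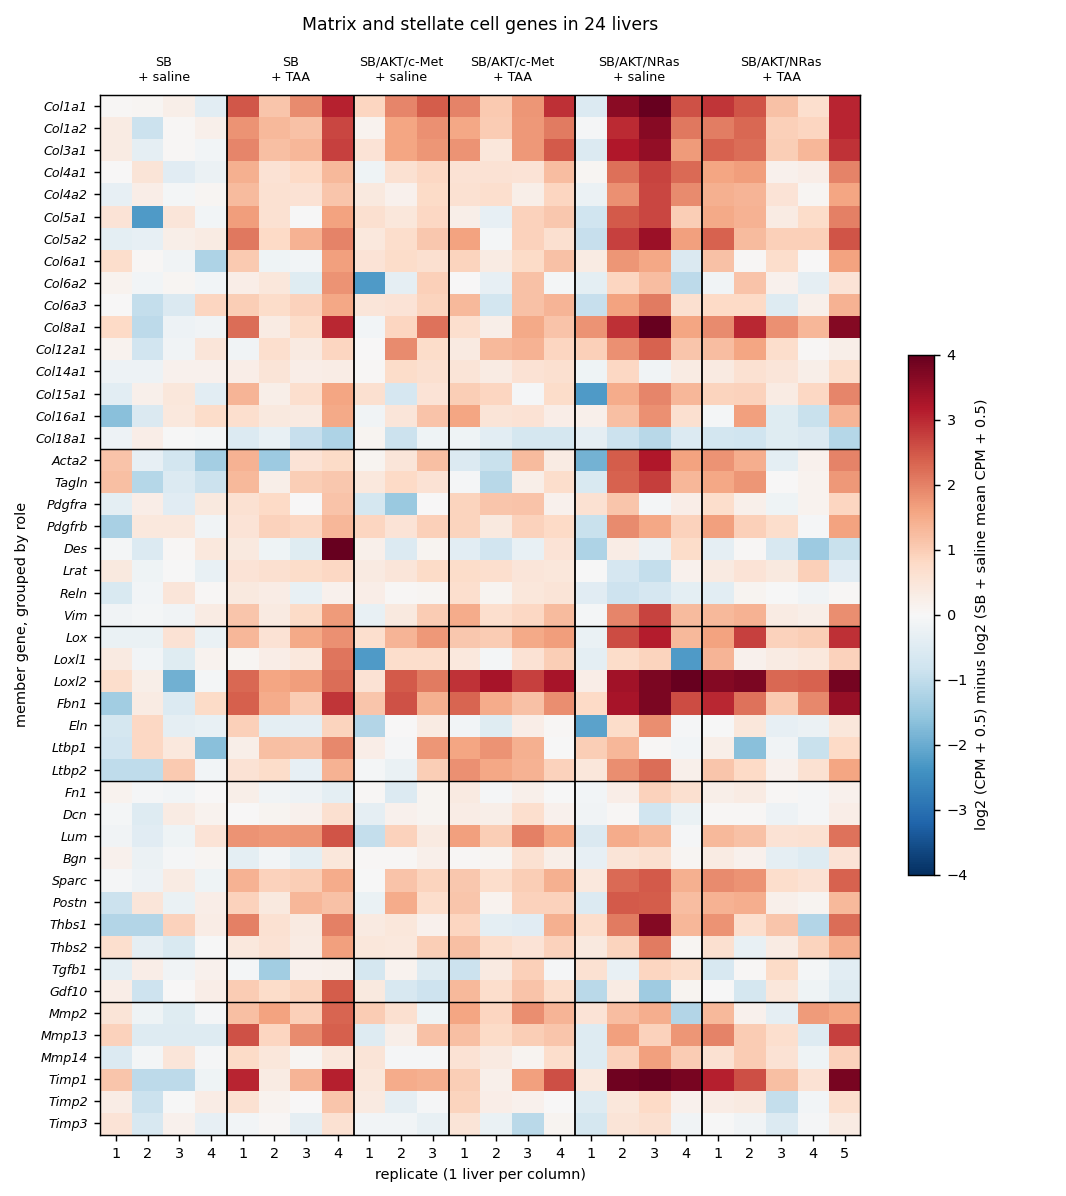
Heat map of the 47 genes (rows, by role) in the 24 livers (columns, by group), as log2(CPM + 0.5) minus the mean of the 4 SB + saline livers, with the color scale ending at 4 units on each side. Most rows turn to higher values in the TAA-treated and NRas livers. An exception is SB/AKT/NRas + saline replicate 1, whose summed CPM of the 47 genes was 1087 against 2157, 2770 and 1790 in the other livers of its group.

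The median log2 fold change of the 47 genes against SB + saline was 1.10 in SB + TAA livers, 0.56 in SB/AKT/c-Met + saline, 1.38 in SB/AKT/NRas + saline, 0.91 in SB/AKT/c-Met + TAA and, with NRas and TAA combined, 1.14, against 0.02 to 0.09 over all genes tested. Scaling by library size alone moved the all-gene medians by over 0.1, to 0.46 with TAA alone and 0.50 with NRas alone, and the medians of the 47 genes to 1.51 and 1.84. In SB + TAA, 16 of the 47 genes were higher in each treated liver than in each SB + saline liver (6.52% of all genes were), whereas in SB/AKT/NRas + saline, with more genes past the test, 4 were (5.07% of all genes). Of the combined groups, 14 genes were above all controls in SB/AKT/c-Met + TAA (7.22% of all genes) and 11 in SB/AKT/NRas + TAA (7.89%). The 1 gene that lay below all controls was Col18a1, in SB + TAA (5.2% of all genes), SB/AKT/NRas + saline (4.27%) and the NRas and TAA combination (6.12%).

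Many of these calls were lost when any 1 of several livers was left out, controls included. The share of all genes past the test was not taken in these fits. In SB + TAA against SB + saline the number of genes past the test fell from 9 to 1 without SB + TAA replicate 4 or without SB + saline replicate 2, 3 or 4, to 2 without SB + saline replicate 1 and to 3 without SB + TAA replicate 1. With NRas alone it went from 21 to 9 without replicate 3 of that group, to 13 without its replicate 2 or without SB + saline replicate 2, and to 25 without its replicate 1, with each of the 21 still past the test. With NRas and TAA it went from 12 to 5 without replicate 5 of that group, to 6 without SB + saline replicate 2 and to 7 without SB + saline replicate 3 or 4. In SB/AKT/c-Met + TAA it went from 2 to 1 without replicate 3 of that group or without SB + saline replicate 1, 2 or 3. The genes called in each of the 17 alternatives run were Lum in SB + TAA, Col1a2, Col4a1, Col4a2, Loxl2, Fbn1, Sparc and Timp1 in SB/AKT/NRas + saline, and Loxl2, Fbn1 and Sparc in SB/AKT/NRas + TAA.

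The fibrillar collagens of scar tissue were the most widely raised of the collagens. Col1a1, Col1a2 and Col3a1 rose with TAA alone, with NRas alone and with NRas and TAA combined. Col1a1 (chr11:94936224-94953042, plus strand, GRCm38) encodes the alpha-1 chain of type I collagen, the main collagen of hepatic scars. It stood at 5.56, 5.68, 6.42 and 3.85 CPM in the SB + saline livers and at 32.6, 12.2, 21.4 and 48.7 CPM in SB + TAA. With c-Met the levels were 10.2, 22.2 and 31.1 CPM after saline and 22.7, 11.6, 19.3 and 43.9 CPM after TAA. With NRas they were 3.52, 70.6, 141 and 33.8 CPM after saline and 42.1, 33.1, 12.9, 8.94 and 48.6 CPM after TAA. Every liver outside the control group was above every control for Col1a1, except SB/AKT/NRas + saline replicate 1, which was the lowest of all 24. Group means were 5.38 ± 1.08 CPM (SD, n = 4) in SB + saline, 28.7 ± 15.7 CPM (SD, n = 4) in SB + TAA and 62.2 ± 59.1 CPM (SD, n = 4) in SB/AKT/NRas + saline. The log2 fold change was 2.42 ± 0.71 (SE), adjusted p = 0.0407, in SB + TAA, 3.54 ± 0.70 (SE), adjusted p = 0.00235, in SB/AKT/NRas + saline and 2.44 ± 0.69 (SE), adjusted p = 0.0243, in SB/AKT/NRas + TAA. In the c-Met groups it did not pass, at 1.98 (adjusted p = 0.351) after saline and 2.17 (adjusted p = 0.0937) after TAA.

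Col1a2 (chr6:4504814-4541544, plus strand), the partner chain of type I collagen, was at 30.4, 13.1, 24.9 and 27.8 CPM in SB + saline, 84.4, 59.997, 54.7 and 156 CPM in SB + TAA and 23.3, 192, 303 and 105 CPM in SB/AKT/NRas + saline. In the combined NRas and TAA livers it was at 100.1, 121, 46.7, 44.0 and 202 CPM. Its log2 fold changes were 1.87 ± 0.54 (SE), adjusted p = 0.0356, for SB + TAA, 2.69 ± 0.55 (SE), adjusted p = 0.00284, for SB/AKT/NRas + saline and 2.09 ± 0.52 (SE), adjusted p = 0.0106, for the combination. Col3a1 (chr1:45311538-45349706, plus strand), the type III chain laid down beside type I, was at 24.4, 14.8, 20.1 and 17.98 CPM in SB + saline and 76.0, 45.4, 49.2 and 132 CPM in SB + TAA. It reached 13.2, 182, 224 and 64.4 CPM in SB/AKT/NRas + saline and 101, 91.8, 38.9, 49.2 and 146 CPM in SB/AKT/NRas + TAA, where all 5 livers were above the controls. The log2 fold changes of Col3a1 were 1.97 ± 0.56 (SE), adjusted p = 0.0335, 2.64 ± 0.56 (SE), adjusted p = 0.00426, and 2.14 ± 0.54 (SE), adjusted p = 0.0114, in the same order. Without SB + TAA replicate 4 the 3 collagens missed the threshold in SB + TAA, with Col1a1 at 2.04 (adjusted p = 0.163), Col1a2 at 1.45 (adjusted p = 0.174) and Col3a1 at 1.55 (adjusted p = 0.161).

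Col4a1 and Col4a2, the paired chains of type IV collagen under endothelium and epithelium, lie head to head on chromosome 8 (chr8:11198423-11312826, minus strand, and chr8:11312805-11449287, plus strand) and both rose with NRas alone. Col4a1 was at 17.98, 25.6, 12.8 and 15.0 CPM in SB + saline and at 18.9, 84.6, 119 and 87.5 CPM in SB/AKT/NRas + saline, where replicate 1 stayed within the control range and the other livers were well above it. In SB + TAA it was at 48.4, 26.8, 31.5 and 44.4 CPM, each above each control, but the log2 fold change of 1.10 did not pass (adjusted p = 0.118). For Col4a2 the levels were 7.28, 11.4, 8.82 and 9.85 CPM in SB + saline and 7.91, 34.4, 62.5 and 36.1 CPM in SB/AKT/NRas + saline. The log2 fold changes with NRas were 2.14 ± 0.41 (SE), adjusted p = 0.00187, for Col4a1 and 1.94 ± 0.38 (SE), adjusted p = 0.00225, for Col4a2. Under NRas and TAA combined, Col4a1 passed (1.36 ± 0.40 (SE), adjusted p = 0.0287) and Col4a2 did not (1.16, adjusted p = 0.0505).

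Minor collagens also rose in the NRas livers. Col5a1 and Col5a2 encode type V collagen, which starts and limits fibril growth, and Col8a1 a short-chain collagen of vessel walls. Col5a2 was at 2.14, 2.27, 3.61 and 3.85 CPM in SB + saline and at 1.32, 22.6, 36.6 and 10.4 CPM in SB/AKT/NRas + saline (log2 fold change 2.58 ± 0.59 (SE), adjusted p = 0.00745). Col5a1 went from 3.00, 0, 2.81 and 1.71 to 0.879, 12.5, 14.8 and 4.23 CPM (log2 fold change 2.05 ± 0.62 (SE), adjusted p = 0.0391). Both had replicate 1 of the NRas group within or below the control range. Col8a1 was at 1.28, 0, 0.401 and 0.428 CPM in SB + saline and 3.08, 7.31, 21.6 and 2.60 CPM in SB/AKT/NRas + saline (log2 fold change 3.89 ± 0.91 (SE), adjusted p = 0.00791), with no overlap, but the control levels rested on few counts. Col12a1, a fibril-associated collagen, rose by 1.84 ± 0.47 (SE), adjusted p = 0.015, from 2.57, 1.14, 2.00 and 3.42 to 4.84, 9.39, 13.6 and 5.53 CPM, again with no overlap. With NRas and TAA combined, Col5a2 (1.93, adjusted p = 0.0373) and Col8a1 (3.31, adjusted p = 0.0196) passed again, and Col5a1 and Col12a1 did not (adjusted p = 0.151 and 0.222).

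One collagen went the other way. Col18a1 (chr10:77052178-77166548, minus strand) encodes the basement membrane collagen from which endostatin is cut and which hepatocytes are known to make. It was at 295, 406, 332 and 325 CPM in SB + saline, 233, 279, 178 and 144 CPM in SB + TAA, 266, 188, 158 and 232 CPM in SB/AKT/NRas + saline and 205, 194, 241, 228 and 153 CPM in SB/AKT/NRas + TAA. All 13 livers of these 3 groups were below all 4 controls. The log2 fold changes were -0.70 ± 0.22 (SE), adjusted p = 0.0498, -0.69 ± 0.22 (SE), adjusted p = 0.0457, and -0.73 ± 0.20 (SE), adjusted p = 0.0202, respectively. With c-Met the levels were 363, 188 and 299.6 CPM after saline and 304, 255, 206 and 209 CPM after TAA, and neither comparison passed (adjusted p = 0.737 and 0.24). Scaling by library size alone reduced the 3 changes of Col18a1 to -0.34, -0.28 and -0.34, which did not pass. Without SB + TAA replicate 4 the change with TAA was -0.56 (adjusted p = 0.207). Of the 8 hepatocyte markers, 2 fell in SB + TAA, 4 in each NRas group and 2 with c-Met and TAA, where Col18a1 did not pass. Their summed level was 96497 to 114890 CPM in SB + saline, 75665 to 109910 CPM in SB + TAA, 48519 to 86338 CPM in SB/AKT/NRas + saline and 48495 to 75019 CPM in SB/AKT/NRas + TAA, with 64488 to 75690 CPM after c-Met alone and 55157 to 81767 CPM after c-Met and TAA, and their part in the result was not tested.

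The remaining collagens did not pass in any comparison. Col6a1, Col6a2 and Col6a3 (beaded filaments around cells), Col15a1 (basement membrane zone) and Col16a1 were at 17.6 CPM or less in every liver, with log2 fold changes of 0.55 to 1.47 in SB/AKT/NRas + saline and 0.92 to 1.26 in SB + TAA. Col14a1, a fibril-associated collagen, was at 37.2 to 49.2 CPM in SB + saline and 51.7 to 62.4 CPM in SB + TAA, without overlap, and its log2 fold change was 0.34 (adjusted p = 0.334).

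**Figure D2:**
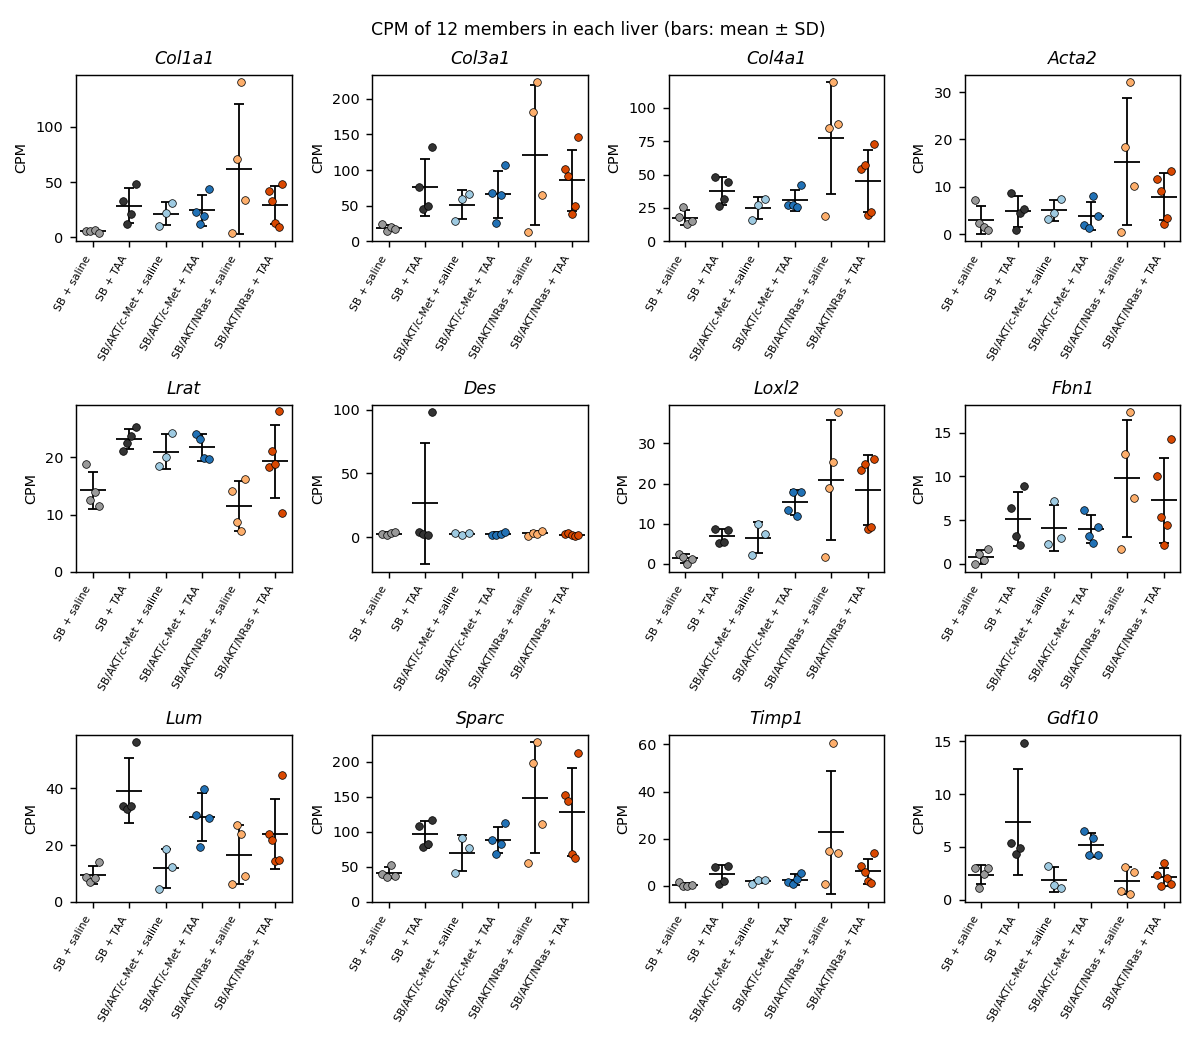
CPM of 12 genes in each liver (points) by group, with the group mean and SD, on linear axes from 0 that differ between panels. Col1a1, Col3a1, Col4a1, Acta2 and Timp1 are highest in SB/AKT/NRas + saline, where replicate 1 lies within or below the control range, and Des is high in 1 liver only, SB + TAA replicate 4 at 97.9 CPM.

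Genes of the contractile myofibroblast passed the test with NRas and did not with TAA alone. Acta2 (chr19:34241090-34255336, minus strand), the alpha smooth muscle actin of activated stellate cells and of vessel walls, was at 7.28, 2.27, 1.604 and 0.856 CPM in SB + saline and 8.74, 0.789, 4.59 and 5.41 CPM in SB + TAA. The c-Met livers held 3.24, 4.44 and 7.499 CPM after saline and 1.92, 1.41, 7.98 and 3.86 CPM after TAA. In SB/AKT/NRas + saline the levels were 0.44, 18.4, 32.1 and 10.1 CPM, and in SB/AKT/NRas + TAA 11.7, 9.15, 2.19, 3.44 and 13.3 CPM. For Acta2 the control and TAA livers overlapped throughout, and SB/AKT/NRas + saline held both the lowest liver and the highest livers of the study. The log2 fold change was 2.36 ± 0.73 (SE), adjusted p = 0.0411, with NRas, 0.71 (adjusted p = 0.663, 95% interval -0.85 to 2.27) with TAA and 1.40 (adjusted p = 0.25) with both. The interval for TAA alone held the fitted changes of Col1a2 and Col3a1 with TAA and not that of Col1a1. The call with NRas was itself lost in 9 of 17 alternatives, the log2 fold change then being 1.70 or more. These were limma-voom, a replicate block, a fit of only the compared groups, and leaving out any 1 of 6 livers. The 6 were SB + saline replicates 2 to 4 and SB/AKT/NRas + saline replicates 2 to 4. Tagln (transgelin, another actin-binding protein of smooth muscle) went from 10.7, 1.71, 2.81 and 2.14 CPM in SB + saline to 2.64, 24.4, 32.1 and 11.7 CPM in SB/AKT/NRas + saline, a log2 fold change of 2.02 ± 0.56 (SE), adjusted p = 0.0239. Vim (vimentin, the filament protein of mesenchymal cells) went from 17.1, 17.6, 16.8 and 23.5 to 17.6, 74.5, 124 and 45.6 CPM in the same groups, 1.81 ± 0.42 (SE), adjusted p = 0.00791. Markers of vascular smooth muscle, which shares Acta2 and Tagln, summed to 2.81 to 11.6 CPM in SB + saline and 3.52 to 17.6 CPM in SB/AKT/NRas + saline over 6 genes, at least 1 of which was at 0 in each NRas liver, and 0 of the 5 tested passed in that comparison by edgeR, 2 having an unadjusted p under 0.05. Without SB/AKT/NRas + saline replicate 1, 1 of the 5 passed. The part of these markers in the result was not tested.

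Markers of the quiescent, vitamin A-storing stellate cell passed the test in no pair of groups. Lrat (chr3:82892579-82903973, minus strand), the enzyme that esterifies retinol for storage, was at 18.8, 12.5, 14.0 and 11.6 CPM in SB + saline and 21.2, 22.5, 23.9 and 25.4 CPM in SB + TAA, with every treated liver above every control (log2 fold change 0.70, adjusted p = 0.0954). With c-Met it was at 18.5, 20.2 and 24.4 CPM after saline and at 24.2, 23.2, 19.9 and 19.7 CPM after TAA. With NRas alone it was at 14.1, 8.70, 7.10 and 16.3 CPM, lowest in the livers with the highest Col1a1, and in SB/AKT/NRas + TAA at 18.4, 21.1, 18.8, 28.2 and 10.3 CPM. Lrat passed the test over all 6 groups at once (adjusted p = 0.0348, where 9.01% of all genes and 16 of the 47 passed), but no single comparison. Reln (chr5:21884454-22344702, minus strand), the reelin glycoprotein that stellate cells make, was at 14.6, 21.0, 31.7 and 23.1 CPM in SB + saline, 36.1, 24.6, 31.0 and 32.3 CPM with c-Met and TAA and 16.3, 12.5, 13.9 and 17.2 CPM with NRas alone. It too passed over the 6 groups (adjusted p = 0.0174) and in no pair of them, and its log2 fold change with NRas was -0.60 (adjusted p = 0.0747). Between the oncogene groups without TAA, every NRas liver was below every c-Met liver for Lrat (-0.88, adjusted p = 0.257) and for Reln (-0.73, adjusted p = 0.234), as were 2.72% of all genes.

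Des (desmin, chr1:75360329-75368579, plus strand) is a filament protein of both stellate cells and skeletal muscle. It was at 2.57, 1.71, 2.81 and 3.85 CPM in SB + saline and 3.70, 2.37, 1.83 and 97.9 CPM in SB + TAA. Its log2 fold change of 3.26 ± 0.85 (SE), adjusted p = 0.0216, rested on replicate 4, which also held the skeletal muscle markers, and without that liver it was -0.08 (adjusted p = 0.989). All 14 of the muscle markers tested passed in the same comparison. Elsewhere Des was at 0.688 to 4.88 CPM. The platelet-derived growth factor receptors, Pdgfra and Pdgfrb, through which stellate cells are driven to divide, did not pass. Pdgfrb was at 0.856 to 4.01 CPM in SB + saline and 4.37 to 7.84 CPM in SB + TAA, without overlap, with a log2 fold change of 1.07 (adjusted p = 0.2), and in SB/AKT/NRas + saline it was 1.35 (adjusted p = 0.0746). Pdgfra was at 0.342 to 4.60 CPM over all livers.

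Among genes of crosslinking and elastic fibers, Loxl2 and Fbn1 stood out. Loxl2 (chr14:69609068-69695834, plus strand) encodes a lysyl oxidase that crosslinks collagen and was 1 of the 2 genes called with c-Met and TAA. It was at 2.57, 1.71, 0 and 1.28 CPM in SB + saline, 8.74, 5.13, 5.50 and 8.38 CPM in SB + TAA and 2.32, 9.91 and 7.499 CPM in SB/AKT/c-Met + saline. The levels were 13.4, 17.9, 11.96 and 17.9 CPM with c-Met and TAA, 1.76, 18.8, 25.3 and 37.8 CPM with NRas alone and 23.4, 24.9, 8.78, 9.28 and 26.1 CPM with NRas and TAA. Each liver of SB + TAA and of both combined groups was above each control. The log2 fold change was 3.46 ± 0.69 (SE), adjusted p = 0.00319, with c-Met and TAA, 3.93 ± 0.67 (SE), adjusted p = 0.000788, with NRas and 3.74 ± 0.66 (SE), adjusted p = 0.000503, with NRas and TAA, while TAA alone (2.34, adjusted p = 0.0581) and c-Met alone (2.29, adjusted p = 0.264) did not pass. Fbn1 (chr2:125300594-125507993, minus strand), the fibrillin of microfibrils that hold latent TGF-beta, was at 0, 1.14, 0.401 and 1.71 CPM in SB + saline and 6.39, 3.16, 2.14 and 8.93 CPM in SB + TAA. It was at 1.76, 12.5, 17.3 and 7.49 CPM in SB/AKT/NRas + saline and 10.0, 5.36, 2.19, 4.47 and 14.3 CPM in SB/AKT/NRas + TAA, and in these 3 groups every liver was above every control. The margin was slight for replicate 1 of SB/AKT/NRas + saline, at 1.76 CPM against 1.71 CPM in the highest control. The control levels of Fbn1 rested on few counts. Its log2 fold changes were 2.67 ± 0.80 (SE), adjusted p = 0.045, 3.60 ± 0.75 (SE), adjusted p = 0.00361, and 3.16 ± 0.75 (SE), adjusted p = 0.00722, the first missing the threshold without SB + TAA replicate 4 (2.24, adjusted p = 0.19).

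Lox, the founding lysyl oxidase, gave a single count over the 4 SB + saline livers. It gave 29 counts in SB/AKT/NRas + saline, a CPM ratio of 22.04 with a 95% counting interval of 3.65 to 900.2, and 35 counts in SB/AKT/NRas + TAA, a ratio of 19.2 (3.23 to 780.5). These intervals cover counting error only. Lox passed in both (adjusted p = 0.0216 and 0.0219) and not in SB + TAA, with 14 counts (adjusted p = 0.155). The other elastic fiber genes, Loxl1, Eln (elastin), Ltbp1 and Ltbp2 (latent TGF-beta binding proteins), were at 10.0 CPM or less in every liver and did not pass in any comparison. Their log2 fold changes were 0.59 to 1.64 in SB + TAA and 0.24 to 1.98 in SB/AKT/NRas + saline.

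The small proteoglycan Lum rose in all 3 TAA groups and had the smallest adjusted p of the 47 genes in SB + TAA. Lum (chr10:97565128-97572703, plus strand) encodes lumican, which spaces collagen fibrils. It was at 8.56, 6.82, 8.42 and 14.1 CPM in SB + saline and 33.9, 32.8, 33.6 and 56.3 CPM in SB + TAA, a rise of 4.09-fold. With c-Met it was at 4.63, 18.5 and 12.4 CPM after saline and 30.7, 19.4, 39.9 and 29.5 CPM after TAA. With NRas it was at 6.16, 27.1, 23.9 and 9.11 CPM after saline and 24.03, 21.8, 14.4, 14.8 and 44.9 CPM after TAA. In each of the 3 TAA groups every liver was above every SB + saline liver, and in each oncogene group without TAA 1 liver was below the control range. The log2 fold change of Lum was 2.03 ± 0.41 (SE), adjusted p = 0.00387, in SB + TAA, 1.64 ± 0.42 (SE), adjusted p = 0.0214, in SB/AKT/c-Met + TAA and 1.33 ± 0.40 (SE), adjusted p = 0.0348, in SB/AKT/NRas + TAA, but 0.81 (adjusted p = 0.268) in SB/AKT/NRas + saline. Without SB + TAA replicate 4 it was 1.80 (adjusted p = 0.0191).

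Sparc (chr11:55394500-55423183, minus strand), a collagen-binding glycoprotein of remodeling tissue, rose with TAA and with NRas. It was at 40.2, 35.8, 52.5 and 36.8 CPM in SB + saline, 109, 78.5, 82.3 and 117 CPM in SB + TAA and 55.4, 199, 229 and 112 CPM in SB/AKT/NRas + saline. The combination of NRas and TAA gave 153, 144, 67.7, 62.6 and 213 CPM. None of the 13 livers of these 3 groups overlapped the controls. The log2 fold changes were 1.22 ± 0.36 (SE), adjusted p = 0.0392, 1.85 ± 0.36 (SE), adjusted p = 0.00202, and 1.63 ± 0.35 (SE), adjusted p = 0.00316, and in SB + TAA without replicate 4 it was 1.11 (adjusted p = 0.126). Postn (periostin, secreted by activated fibroblasts) went from 1.71, 5.12, 2.81 and 4.28 CPM in SB + saline to 2.20, 21.2, 20.7 and 8.79 CPM in SB/AKT/NRas + saline (1.98 ± 0.51 (SE), adjusted p = 0.0148). Thbs1 (thrombospondin 1, which can release active TGF-beta) went from 0, 0, 1.604 and 0.856 to 1.32, 4.18, 13.6 and 2.28 CPM (2.98 ± 0.89 (SE), adjusted p = 0.0342). For Postn and Thbs1 replicate 1 of the NRas group lay within the control range. The other glycoproteins and proteoglycans included abundant proteins of the liver. Fn1 (fibronectin, also made by hepatocytes) was at 319 to 380.1 CPM in SB + saline and 318 to 653 CPM in SB/AKT/NRas + saline. Dcn (decorin), the neighbor of Lum, was at 139 to 247 CPM in SB + saline and 199 to 310.0 CPM in SB + TAA, Bgn (biglycan) at 21.3 to 47.7 CPM and Thbs2 at 0.401 to 5.397 CPM over all livers. None of these 4 passed in any comparison, their log2 fold changes in SB/AKT/NRas + saline being 0.48, -0.26, 0.28 and 1.46.

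Of the 2 growth factors, Gdf10 rose with TAA and Tgfb1 did not pass. Gdf10 (chr14:33923587-33937983, plus strand), a TGF-beta family member also named BMP3B, was at 3.00, 1.14, 2.41 and 3.00 CPM in SB + saline and 5.38, 4.34, 4.89 and 14.9 CPM in SB + TAA, without overlap (1.605 ± 0.47 (SE), adjusted p = 0.0385). Replicate 4 was again the highest, and without it the log2 fold change was 0.99 (adjusted p = 0.306). In the combined groups Gdf10 was at 6.53, 4.22, 5.83 and 4.21 CPM with c-Met and 2.34, 1.26, 3.45, 2.06 and 1.504 CPM with NRas. Tgfb1, the main fibrogenic cytokine, was at 0.395 to 3.99 CPM over all livers, near the floor of 3 counts.

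Timp1 was the protease inhibitor that moved most. Timp1 (chrX:20870166-20874735, plus strand), which blocks metalloproteinases and is a common marker of hepatic fibrogenesis, was at 1.71, 0, 0 and 0.428 CPM in SB + saline and 8.07, 0.789, 2.14 and 8.38 CPM in SB + TAA. With c-Met it was at 0.926, 2.39 and 2.25 CPM after saline and 1.54, 0.704, 2.76 and 5.62 CPM after TAA. With NRas it was at 0.879, 15.0, 60.8 and 14.0 CPM after saline and 8.34, 5.68, 1.88, 1.03 and 14.0 CPM after TAA. Of all livers, 3 of SB/AKT/NRas + saline and 1 of SB/AKT/NRas + TAA were at 14.0 CPM or more, while replicate 1 of SB/AKT/NRas + saline lay with the controls. The log2 fold change was 5.27 ± 1.04 (SE), adjusted p = 0.00228, in SB/AKT/NRas + saline, 3.06 (adjusted p = 0.142) in SB + TAA and 3.41 (adjusted p = 0.0581) in SB/AKT/NRas + TAA, all against a control level of few counts. Mmp14, a membrane metalloproteinase that activates Mmp2, was at 14.1, 19.9, 29.7 and 20.6 CPM in SB + saline and 14.5, 40.0, 66.5 and 42.6 CPM in SB/AKT/NRas + saline (0.97 ± 0.30 (SE), adjusted p = 0.0455). Mmp2 (gelatinase A) was at 0.802 to 2.14 CPM in SB + saline and 3.06 to 8.65 CPM in SB + TAA, without overlap, and just missed the threshold (1.91, adjusted p = 0.0524). Mmp13, the interstitial collagenase of the mouse, gave 2 counts in SB + saline and 32 in SB + TAA, a CPM ratio of 11.4 (95% counting interval 2.92 to 98.5), and did not pass (adjusted p = 0.0588). Timp2 (4.70 to 21.6 CPM) and Timp3 (12.6 to 42.9 CPM) passed in no comparison.

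**Figure D3:**
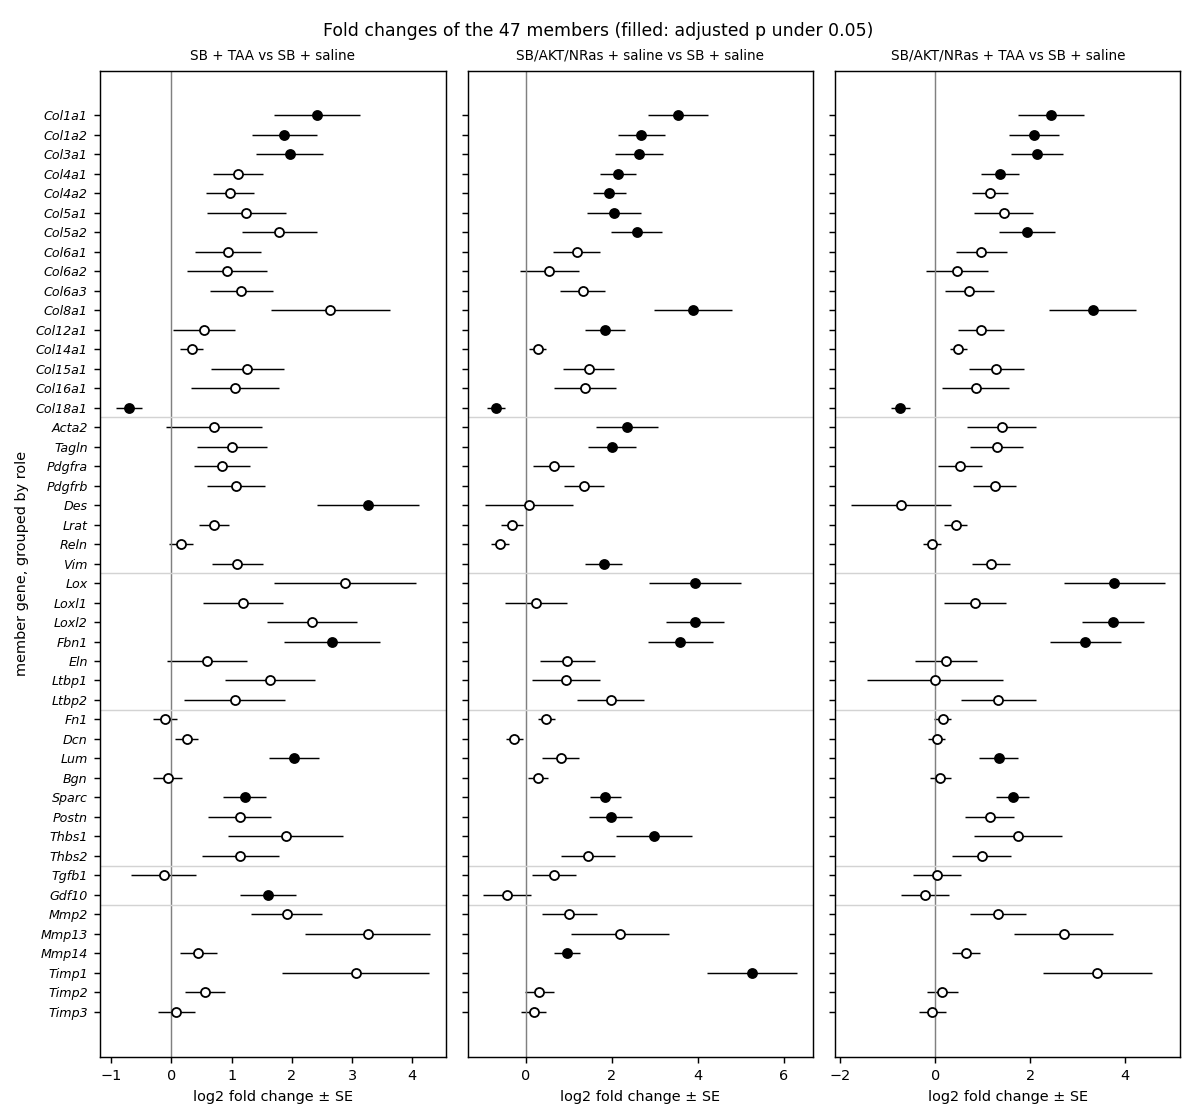
Log2 fold change against SB + saline (points, with SE bars) of the 47 genes with TAA alone, NRas alone and NRas and TAA combined (left to right), with filled points for an adjusted p under 0.05 and x axes that differ between panels. Filled points number 9, 21 and 12, and Col18a1 is the filled point below 0 in each panel.

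The c-Met livers without TAA gave no gene past the test. Against SB + saline, 0 of the 47 passed with edgeR, DESeq2 or limma-voom (n = 3 and 4), 9 had an unadjusted p under 0.05, all higher (10.1% of all genes did, 6.24% higher), and 0.64% of all genes passed. The fitted values were not small: Loxl2 at 2.29, Fbn1 at 2.38 (adjusted p = 0.314) and Col1a1 at 1.98. Set against each other, the oncogene pairs without TAA gave 0 genes past the test by edgeR, DESeq2 or limma-voom, where 0.134% of all genes passed. An unadjusted p under 0.05 was reached by 21, of which 19 were higher with NRas (9.45% of all genes reached it). Timp1 had a log2 difference of 3.57 (adjusted p = 0.155), and without SB/AKT/NRas + saline replicate 1 the number past the test was 9. The share of all genes was not taken in that fit.

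Whether TAA added to the oncogenes was asked within each plasmid. TAA livers and saline livers of the c-Met plasmids differed in 0 of the 47 genes by edgeR, DESeq2 or limma-voom, where 0.237% of all genes passed. At an unadjusted p under 0.05 there were 4 (8.69% of all genes), Pdgfra (1.83), Loxl2 (1.17), Lum (1.30) and Gdf10 (1.48), all higher with TAA. With the NRas plasmids 0 of the 47 passed by any of the 3 tools, where 0.175% of all genes did, and 1 passed without SB/AKT/NRas + saline replicate 1. At an unadjusted p under 0.05 there were 8 (8.65% of all genes), Lrat (0.75) and Reln (0.52) higher with TAA and Timp1 (-1.86), Col1a1 (-1.10), Col12a1 (-0.88), Postn (-0.83), Col4a2 (-0.79) and Col4a1 (-0.78) lower. The fitted change with TAA was below 0 in 38 of the 47 genes in the NRas livers and above 0 in 43 of 47 in the SB livers. In the NRas livers 19.1% of the 47 and 47.3% of all genes were above 0, and in the SB livers 91.5 and 55.6%.

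**Figure D4:**
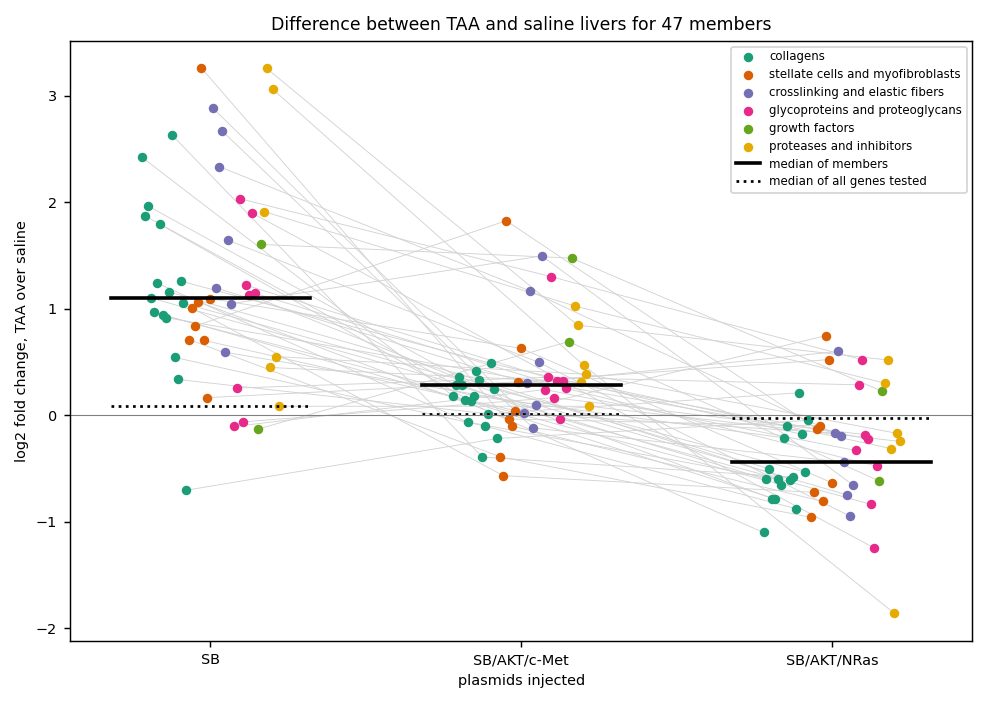
Log2 fold change of TAA over saline for each of the 47 genes (points) within each set of plasmids (SB, c-Met and NRas), with the median of the 47 and that of all genes tested. The medians of the 47 are 1.10, 0.28 and -0.44, and those of all genes 0.09, 0.02 and -0.02.

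The difference between these TAA effects was itself tested. Between NRas and SB, 0 of the 47 passed with edgeR and with limma-voom and 2 with DESeq2, where 0.758% of all genes passed with edgeR. An unadjusted p under 0.05 was reached by 25 of the 47, of which 24 had the lower TAA effect with NRas (9.24% of all genes reached it in that direction). The median difference of the 47 was -1.61, against -0.11 over all genes. Col1a1 came nearest (-3.52 ± 0.89 (SE), adjusted p = 0.0541), its level going from 5.38 ± 1.08 CPM (SD, n = 4) to 28.7 ± 15.7 CPM (SD, n = 4) with TAA in SB livers and from 62.2 ± 59.1 CPM (SD, n = 4) to 29.1 ± 17.6 CPM (SD, n = 5) in NRas livers. Timp1 followed (-4.92 ± 1.34 (SE), adjusted p = 0.081). Without SB/AKT/NRas + saline replicate 1, 14 of the 47 passed, 4 did without SB + TAA replicate 2, 3 without SB/AKT/NRas + TAA replicate 5, and 11 without both livers that stood apart. The share of all genes past the test was not taken in these fits, so the counts cannot be set against it. Between c-Met and SB, 0 passed by any of the 3 tools and 6 had an unadjusted p under 0.05, all with the lower TAA effect with c-Met (8.45% of all genes had one, and 0.0103% passed).

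Set directly against TAA alone, the combined groups gave few calls. Against SB + TAA, the SB/AKT/NRas + TAA livers had 2 of the 47 lower, Des (-3.99 ± 0.79 (SE), adjusted p = 0.00495) and Gdf10 (-1.81 ± 0.42 (SE), adjusted p = 0.0194), where 1.47% of all genes passed (0.464% lower). Without SB + TAA replicate 4 neither passed, Des being at -0.64 (adjusted p = 0.736) and Gdf10, whose SB + TAA livers were still all above the others, at -1.20 (adjusted p = 0.292), and 1 passed without SB/AKT/NRas + TAA replicate 2 or 5. For the c-Met plasmids with TAA against SB + TAA 0 passed by the 3 tools and 2 had an unadjusted p under 0.05 (8.91% of all genes), where 0.402% of all genes passed, and 1 passed without SB + TAA replicate 1, 2 or 3. Between the 2 combined groups 0 passed by the 3 tools and 5 had an unadjusted p under 0.05 (4.61% of all genes), where 0.0103% of all genes passed.

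Other genes of matrix biology were counted over whole lists, also drawn up with earlier results known, and the genes named from them are those with the smallest p. Of 38 other matrix proteins tested, 7 rose in SB + TAA livers, 1 in SB/AKT/c-Met + saline, 10 rose and 1 fell in SB/AKT/NRas + saline, 5 rose in SB/AKT/c-Met + TAA and 6 with NRas and TAA combined. Smoc2 (a calcium-binding matricellular protein) rose in SB + TAA, from 3.62 ± 0.93 to 38.1 ± 23.0 CPM (SD, n = 4 each), and Ccdc80 from 17.9 ± 6.64 to 63.2 ± 19.9 CPM. The basement membrane linker Nid1 was at 12.9 ± 2.30 CPM in SB + saline and 78.3 ± 57.7 CPM in SB/AKT/NRas + saline (log2 fold change 2.62 ± 0.50, adjusted p = 0.00186), and Spon2 was at 9.25 ± 3.93 and 44.7 ± 23.3 CPM. Of 27 other matrix proteases and inhibitors, 3 rose and 1 fell in SB + TAA, and 1, 5, 3 and 5 rose in the other groups, in the order just given. Mmp12, the macrophage elastase, rose in all 5, from 0.456 ± 0.076 CPM in SB + saline to 22.4 ± 13.2 CPM in SB + TAA and 10.7 ± 6.93 CPM in SB/AKT/NRas + saline. The Mmp12 level in SB + saline lay below the 1.20 to 1.70 CPM that 3 counts made there. Its fold changes and the difference of its TAA effects therefore rested on a control level of few reads. The TAA effect on Mmp12 was lower in NRas than in SB livers (log2 difference -5.77, adjusted p = 0.00694), as was that on Smoc2 (-2.92, adjusted p = 0.0473). Without SB + TAA replicate 4, chosen as an alternative after seeing the data, 3 of these matrix proteins and 1 protease rose with TAA alone. Smoc2 (2.97, adjusted p = 0.00122), Ccdc80 (1.58, adjusted p = 0.021) and Mmp12 (5.38, adjusted p = 0.000442) still passed, and the difference of TAA effects still passed for Mmp12 (-5.63, adjusted p = 0.0121) but not for Smoc2 (-2.49, adjusted p = 0.115).

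Pathway genes upstream of the matrix were counted in the same way, against the same shares of all genes. Of 30 genes of the TGF-beta pathway, 6 rose in SB/AKT/NRas + saline and 0 passed in the other 4 groups by edgeR. An unadjusted p under 0.05 was reached there by 5 with TAA alone (4 higher, against 20.7% of all genes in either direction), 3 with c-Met alone (1 higher, against 10.1%), 5 with c-Met and TAA (all higher, against 17.2%) and 10 with NRas and TAA (7 higher, against 23.2%). The ligand Tgfb2 went from 1.37 ± 0.227 to 9.82 ± 7.66 CPM with NRas (log2 fold change 2.87 ± 0.78, adjusted p = 0.0212), and Itgav, an integrin chain that activates latent TGF-beta, rose by 0.95 ± 0.27 (adjusted p = 0.0278). Of 25 collagen processing enzymes, 1 fell in SB + TAA, Plod1, a lysyl hydroxylase, from 30.5 ± 5.30 to 16.1 ± 1.28 CPM (log2 fold change -0.93, adjusted p = 0.00277). Unlike Mmp12 and Smoc2, Plod1 had a higher TAA effect in NRas than in SB livers (log2 difference 1.09, adjusted p = 0.0300). Without SB + TAA replicate 4 that difference was 1.05 (adjusted p = 0.0778). Plod1 was also higher in SB/AKT/NRas + TAA than in SB + TAA (0.86, adjusted p = 0.0046), and still without that liver (0.83, adjusted p = 0.0276). With NRas alone 2 of the 25 enzymes rose, the collagen chaperone Serpinh1 (1.59 ± 0.41, adjusted p = 0.0157) and Colgalt1 (0.74 ± 0.19, adjusted p = 0.0146). With NRas and TAA 1 rose and 1 fell against SB + saline, and in the c-Met groups 0 passed by edgeR. Of 4 PDGF ligands Pdgfa rose in SB + TAA, from 15.4 ± 2.88 to 31.4 ± 11.7 CPM, and of 17 matrix receptors Itga8, an integrin chain of stellate cells, rose from 6.09 ± 2.74 to 18.2 ± 6.23 CPM. Itga8 was also higher with c-Met, at 19.3 ± 3.75 CPM after saline (n = 3) and 19.1 ± 5.48 CPM after TAA, each the single receptor past the test there. With NRas alone 3 receptors rose, Itga2, Ddr1 and Cd44, and with NRas and TAA Itga8 and Ddr1 rose and Sdc2 fell. Of 17 other stellate cell markers, 1 fell in SB + TAA, the chemokine Cxcl12 (167 ± 30.0 to 95.5 ± 19.8 CPM), and 2 rose and 2 fell in SB/AKT/NRas + saline. Of 15 other collagen chains tested, 1 rose and 1 fell in SB + TAA, the latter Col27a1, from 31.9 ± 7.58 to 5.77 ± 2.88 CPM. With SB + TAA replicate 4 left out, Pdgfa (log2 fold change 0.96, adjusted p = 0.139) and Cxcl12 (-0.76, adjusted p = 0.129) missed the threshold with TAA alone, and Itga8 (1.38, adjusted p = 0.0153), Plod1 (-0.89, adjusted p = 0.0149) and Col27a1 (-2.21, adjusted p = 0.0104) did not. The genes named here and above as past the test with NRas alone also passed without replicate 1 of that group.

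Markers of other cells moved with the same groups. Of all genes tested, 5.99% were called with TAA alone, 0.64% with c-Met alone and 8.41% with NRas alone. The shares were 3.76% with c-Met and TAA and 9.25% with NRas and TAA. Of 8 markers of monocyte-derived macrophages, 7 rose with TAA alone, 2 with c-Met alone, 6 with NRas alone, 6 with c-Met and TAA and 7 with NRas and TAA, with Mmp12 in both this list and the protease list. Their summed level was 16.3 to 28.1 CPM in SB + saline, with 1 marker at 0 in all 4 livers, and 73.8 to 133 CPM in SB + TAA. Bile duct markers (7 genes) summed to 56.5 to 97.0 CPM in SB + saline and 131 to 241 CPM in SB + TAA, with 0 past the test by edgeR and 0 at an unadjusted p under 0.05. After NRas alone they summed to 150 CPM in replicate 1 and 2583, 8801 and 920 CPM in the others, and in SB/AKT/NRas + TAA to 224 to 4757 CPM, with 3 and 1 of 7 past the test. The 3 after NRas alone were Spp1 (log2 fold change 6.07), Epcam (2.78) and Sox9 (1.47). Krt19 of the same list was at 0, 13.2, 18.7 and 0 CPM after NRas alone, against 2.14 CPM or less in SB + saline. In SB/AKT/NRas + TAA Krt19 was at 5.34, 1.58, 1.25, 2.41 and 20.5 CPM. In replicates 1 and 4 after NRas alone 3 of the 7 markers were at 0, so a high sum did not mean that each marker was high. The liver with the highest bile duct sum in each NRas group, replicate 3 after saline and replicate 5 after TAA, also held the highest sum of the 47 genes in its group, 2770 and 2062 CPM, and the highest NRAS transgene level, 218 and 75.7 CPM. Markers of portal fibroblasts, which share the collagens, summed to 6.01 to 12.8 CPM in SB + saline, 10.7 to 43.2 CPM in SB + TAA and 4.40 to 33.5 CPM in SB/AKT/NRas + saline over 7 genes. Of the 6 tested, 0 passed in SB + TAA by edgeR, with 2 at an unadjusted p under 0.05, and 1 passed in SB/AKT/NRas + saline, or 2 without replicate 1 of that group. The summed levels of sinusoidal endothelial, Kupffer cell and mesothelial markers overlapped between SB + saline and every other group, while single markers among them passed. The endothelial marker Lyve1 was at 1.71 to 5.61 CPM in SB + saline and rose in each TAA group, to 8.40 to 24.1 CPM with TAA alone, 9.203 to 23.5 CPM with c-Met and 9.97 to 20.5 CPM with NRas. Of the 6 Kupffer cell markers, Cd5l rose and C6 fell with NRas and TAA (log2 fold changes 0.95 and -0.91, adjusted p = 0.0261 and 0.0379). C6 was at 198 to 310 CPM in SB + saline and 86.0 to 157 CPM with TAA alone, where 5.2% of all genes lay below all controls. With TAA alone 0 of the 6 Kupffer cell markers passed by edgeR, C6 included. With TAA alone and without replicate 4 of that group, 6 of the 8 macrophage markers passed and Lyve1 did not (1.68, adjusted p = 0.0936). The part of these cells in the changes of the 47 genes was not tested.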

How the data were processed

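The authors prepared 3′ RNA-seq libraries from bulk snap-frozen liver by poly-A priming, with unique molecular identifiers of 10 bases. They aligned the reads with STAR to GRCm38 with human NRAS and MET added, and counted them per gene with featureCounts 1.6.4 on the forward strand at a mapping quality of at least 10. Raw counts were deposited by the authors, and all values here were computed from them. Levels are CPM scaled by TMM and, as reads come from 3′ ends, were compared between livers and not between genes. Genes reaching 0.5 CPM in 2 or more of the 24 libraries were fitted with edgeR 4.0.16 (quasi-likelihood test, R 4.3.3) over all 6 groups, with Benjamini-Hochberg adjustment over 19381 genes and a threshold of 0.05. This use of edgeR in place of limma-voom fits raw counts. The code was tested on simulated data. "Rose" and "fell" mean past that threshold. No 2 libraries held identical counts (276 pairs).

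The 47 genes and the other lists were chosen with earlier results of these data known. All 47 are accounted for by role, and those shown liver by liver passed a comparison or the test over 6 groups, or are Acta2, Col1a1, Lrat or Reln. From the other lists at most 4 genes with the smallest p were named per comparison, and the bile duct marker Krt19 was given whatever its result. The result of 1 stellate cell marker outside the 47 genes is not reported here. Alternatives were limma-voom (limma 3.58.1), DESeq2 1.42.0, other scalings and filters, a replicate block, the compared groups alone, and leaving out each liver. The 2 livers left out together were picked from earlier results of these data. Leaving out either of them for the other lists was added after seeing the data. Promoters came from RefSeq tables, and plots were drawn with matplotlib 3.10.9. Separate mice gave the replicates, and 3 to 5 per group with 2152510 to 3399247 counts per library limited the precision. The alignment statistics were used for assigned shares only.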

Additional observations from a re-analysis of the deposited data

Results flagged for a closer look

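Each of the 47 genes was examined for single livers far from the rest of their group in the 5 groups of 4 or 5 livers, 235 groups of values in all, and 16 held one by Dixon's 95% critical value, where chance gives about 1 in 20. Of the 16, 5 lay in SB + TAA replicate 4, the liver with the skeletal muscle markers: Des at 97.9 CPM (next 3.70 CPM), Gdf10 at 14.9 CPM (next 5.38 CPM), Lum at 56.3 CPM (next 33.9 CPM), Loxl1 at 10.0 CPM and Thbs2 at 3.79 CPM. In SB + TAA replicate 2, Col14a1 was the highest at 62.4 CPM. In SB + saline the livers far above the rest were replicate 1 for Tagln at 10.7 CPM and Mmp13 at 0.856 CPM, replicate 2 for Eln at 3.41 CPM, replicate 3 for Lox at 0.401 CPM with the others at 0, and replicate 4 for Vim at 23.5 CPM. In SB/AKT/c-Met + TAA they were replicate 4 for Col4a1 at 42.5 CPM (next 27.1 CPM), replicate 3 for Col6a2 at 4.91 CPM, replicate 1 for Col16a1 at 4.23 CPM and replicate 2 for Col6a3, the lowest at 2.11 CPM (next 9.203 CPM). In SB/AKT/NRas + TAA, Col15a1 was highest in replicate 5 at 8.77 CPM. SB/AKT/NRas + saline held none, its low replicate 1 included. With all 24 livers, TMM scaling and the filter on low counts, no difference of TAA effects passed the test in edgeR for any of the 47 genes.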

How the results depend on the processing

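Direction held for all genes called, under every alternative run, except the Des log2 fold change, SB + TAA vs SB + saline, which was -0.0802 to 3.65 without 1 liver, the lowest without replicate 4 of that group, and -0.102 without both livers that stood apart. Counts of the 47 genes moved more. Against SB + saline, limma-voom called 3 genes in SB + TAA, 11 in SB/AKT/NRas + saline, 1 in SB/AKT/c-Met + TAA, 6 in SB/AKT/NRas + TAA, with 1 in the NRas combination against SB + TAA and 5 over the 6 groups. DESeq2 called 1 in that NRas comparison and 2 for the TAA effect in NRas against SB. Library size alone called 19 (SB + TAA), 12 (SB/AKT/c-Met + TAA), 23 (SB/AKT/NRas + TAA), 6 (TAA effect, NRas against SB) and 25 (over 6 groups). With no filter on low counts 19, 9 and 20 were called in the 3 TAA groups against SB + saline, 5 in SB/AKT/c-Met + saline, 2 in the c-Met combination against SB + TAA, 1 and 3 for TAA within c-Met and NRas, 14 for NRas against c-Met after saline, 5 and 18 for the TAA effect in c-Met and NRas against SB, and 27 over 6 groups. With only the compared groups fitted 15 (SB + TAA), 3 (SB/AKT/c-Met + saline), 13 (SB/AKT/NRas + saline), 12 (SB/AKT/c-Met + TAA) and 0 (NRas combination against SB + TAA) were called. Without both livers that stood apart the counts were 4 in SB + TAA, 1 in the NRas combination against SB + TAA, 2 for TAA within NRas, 13 for NRas against c-Met after saline, 11 for the TAA effect in NRas against SB and 27 over 6 groups. The cause of these shifts was not tested. Shares of all genes called were taken from the main fit only. The counts under these settings, and those below without single livers, therefore do not show whether calls changed over all genes as well. Library size alone moved the all-gene medians too, as given above.

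Leaving out 1 liver at a time gave 1 to 12 genes in SB + TAA, 9 to 25 in SB/AKT/NRas + saline, 1 to 2 with c-Met and TAA and 5 to 17 with NRas and TAA, all against SB + saline, 0 to 1 and 0 to 2 in the c-Met and NRas combinations against SB + TAA, 0 to 1 for TAA within NRas, 0 to 9 for NRas against c-Met after saline, 0 to 14 for the TAA effect in NRas against SB and 9 to 28 over 6 groups. The replicate numbers paired no samples: the deviations of 55 same-numbered pairs had a mean correlation of -0.00717 (-0.294 to 0.144), and 4 of 24 livers were nearest to their own number. A fit with the replicate number as a block called 5 genes in SB/AKT/NRas + TAA against SB + saline and 0 against SB + TAA.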
